A study of Homo sapiens with 6 samples.

Results

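The genes described here encode the human mitotic kinases PLK1, PLK2, PLK3, PLK4, AURKA, AURKB, TTK and BUB1 and the phosphatases CDC25B and CDC25C. They were taken by gene symbol from the deposited table, and all 10 were measured, each by 1 probeset, among 18404 genes named by a single symbol. RNA came from PC-3, a human prostate carcinoma line that grows without androgen, and was hybridised to 6 Affymetrix whole-transcript arrays. The menthol group held 3 arrays of cells that received menthol dissolved in ethanol, and the vehicle group held 3 arrays of cells that received the ethanol without menthol, at 0.1% ethanol in medium with 10% fetal bovine serum. The question was how menthol changes the expression profile of this line. Menthol dose and treatment time are not stated in the labels. Nor do the labels say whether the replicates came from separate cultures, so a p-value here reflects only how far these arrays differ, part of which may be technical.

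Entry into mitosis is driven by the kinase CDK1 bound to a B-type cyclin. WEE1 and PKMYT1 hold CDK1 inactive by phosphorylation, and the CDC25 phosphatases remove those phosphates, CDC25B acting early and CDC25C in the feedback that completes the switch. PLK1 adds to this feedback and later acts at centrosomes, kinetochores and the cleavage furrow, while AURKA works at spindle poles, AURKB at centromeres and the midzone, and TTK and BUB1 in the spindle checkpoint. PLK4 governs centriole duplication. PLK2 and PLK3 are induced by growth factors and by stress and are not confined to mitosis. Transcripts of many mitotic genes rise late in the cell cycle, through promoter elements called the CHR, bound by the MuvB complexes that include DREAM and B-MYB, and the CCAAT box, bound by NF-Y.

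Promoter sequence is shown for 5 of these genes so that members that fell and carry these elements can be compared letter by letter with PLK2, which fell and carries neither. RefSeq windows of build GRCh38.p14, from 250 bases before to 50 bases after each annotated transcript start, were found for 8 of the 10 genes. Each sequence runs from 120 bases before to 30 bases after its start, 5′ to 3′ on the gene's strand, with CHR-type hexamers and CCAAT boxes in capitals, and in CDC25C also the GGCGG that lies 4 bases before the hexamer.
PLK1, plus strand, chr16:23678769-23678918: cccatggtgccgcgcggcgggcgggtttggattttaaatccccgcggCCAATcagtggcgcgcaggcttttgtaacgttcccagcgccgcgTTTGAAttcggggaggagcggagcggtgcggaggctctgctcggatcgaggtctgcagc
CDC25C, window 4, minus strand, chr5:138331775-138331924: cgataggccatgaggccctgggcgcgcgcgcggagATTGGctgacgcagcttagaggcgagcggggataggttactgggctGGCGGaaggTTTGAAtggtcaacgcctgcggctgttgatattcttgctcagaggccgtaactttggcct
CDC25B, window 3, plus strand, chr20:3796190-3796339: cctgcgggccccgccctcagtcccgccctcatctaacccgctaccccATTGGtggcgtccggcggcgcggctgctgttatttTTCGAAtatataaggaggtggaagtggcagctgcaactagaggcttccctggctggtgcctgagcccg
BUB1, minus strand, chr2:110678034-110678183: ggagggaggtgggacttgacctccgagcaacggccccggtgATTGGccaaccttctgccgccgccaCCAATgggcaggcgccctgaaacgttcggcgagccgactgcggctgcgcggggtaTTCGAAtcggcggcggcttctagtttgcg
PLK2, minus strand, chr5:58460057-58460206: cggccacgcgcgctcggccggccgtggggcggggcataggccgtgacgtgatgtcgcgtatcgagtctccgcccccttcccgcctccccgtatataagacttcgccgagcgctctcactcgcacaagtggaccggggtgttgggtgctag

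The CHR letters searched were TTTGAA and TTCGAA on either strand, and the CCAAT letters were CCAAT on either strand. No motif overlapped another in the windows shown. The CHR-type hexamer began 29 bases before the start of PLK1, 30 before that of CDC25C in window 4, 38 before that of CDC25B in window 3 and at base 2 of the BUB1 transcript. A hexamer was found in at least 1 window of 5 of the 8 genes, the fifth being PLK4, where it began at base 39 of the transcript in 1 of 3 windows. CDC25B held it in 1 of 4 windows and CDC25C in 2 of 4, where in window 2 it began at base 44 of the transcript; windows 2 and 4 of CDC25C overlap in the genome and hold the same hexamer. Counted by window, 6 of the 17 windows of the 8 genes held a hexamer, against 16.4% of all 35116 windows. Counted by gene, 19.5% of all 27305 genes held it in at least 1 window, but the 8 genes have more annotated windows each than genes overall. A CCAAT box was found for 6 of the 8 genes, against 39.7% of all genes. Counted by window it was in 9 of 17, against 34.6% of all windows. Some of these 9 windows overlap in the genome and count a box more than once. Windows 1 and 2 of AURKB hold the same box, and windows 2 and 4 of CDC25C share 1 box. Both elements shared 1 window in 4 of the 8 genes, against 7.85% of all genes. By window this was 5 of 17, the overlapping windows 2 and 4 of CDC25C among them, against 6.38% of all windows. The spaced arrangement of GGCGG, 4 bases and TTTGAA was also searched on either strand. These are the letters marked in CDC25C above, so the match in CDC25C itself is not a result. None of the other genes of the 8 held it, and 0.0586% of all genes did. PLK2 and PLK3 held neither element in their single window, and AURKB held a CCAAT box without a hexamer. A match is a description of the letters in these windows, and binding was not measured.

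**Figure D1:**
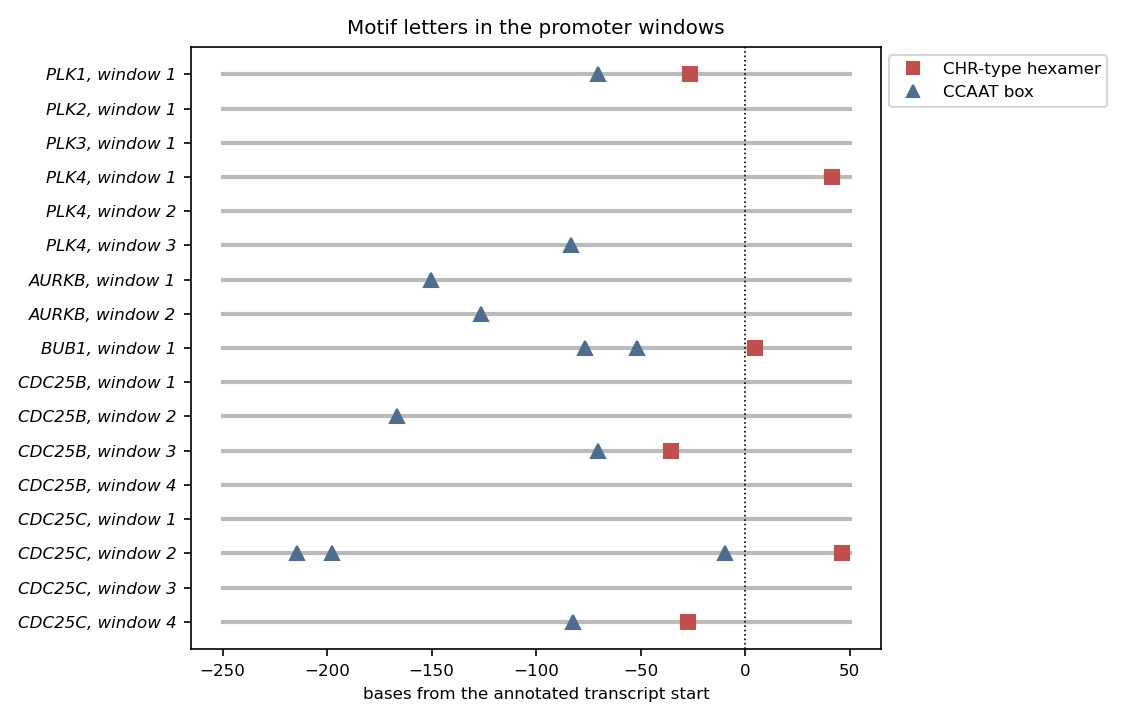
Positions of CHR-type hexamers (squares) and CCAAT boxes (triangles) in the promoter windows of the 8 genes, with the distance from the annotated transcript start in bases on the horizontal axis and 1 row for each annotated window. PLK1, BUB1, window 3 of CDC25B and window 4 of CDC25C hold both elements close to the start, while the windows of PLK2 and PLK3 hold neither.

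With menthol the transcripts of most of these enzymes were lower. Of the 10 genes 8 fell and 0 rose at an adjusted p under 0.05 (limma, Benjamini-Hochberg over all 18404 genes), where 14.5% of all genes fell and 14.6% rose. The falls ranged from 1.32-fold in CDC25C to 2.01-fold in PLK1, and 4 genes fell at least 1.5-fold, which 2.62% of all genes did. None of the 10 rose at least 1.5-fold, which 2.99% of all genes did. The median log2 fold change of the 10 genes was -0.46, beside 0.03 over all genes. Signal itself bears on these shares: 7 of the 10 genes lay among the 4601 genes with the highest mean signal, of which 26.9% fell. In bulk RNA, fewer cells in mitosis and less of a transcript in each such cell cannot be told apart.

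PLK1, the polo-like kinase of mitotic entry and cytokinesis, changed most. Its intensity was 681, 672 and 695 on the menthol arrays, against 1328, 1373 and 1417 on the vehicle arrays. The groups lay far apart, and the spread within each was small. The log2 mean was 9.41 ± 0.02 with menthol and 10.42 ± 0.05 with vehicle (SD, n = 3 each), so PLK1 fell by 1.01 ± 0.06 on the log2 scale (SE; limma adjusted p = 5.3e-05). Ranked by log2 fold change this was decrease number 96 among the 18404 genes.

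PLK2, a polo-like kinase induced by serum and stress, fell less. It measured 520, 587 and 566 with menthol, against 683, 740 and 831 with vehicle. The groups did not overlap, and the vehicle values spanned more than the menthol values. PLK2 fell by 0.43 ± 0.09 (SE; limma adjusted p = 0.0098). PLK4, the kinase that starts centriole duplication, measured 248, 240 and 277 with menthol, against 286, 287 and 297 with vehicle. Menthol replicate 3 came close to the vehicle arrays, and the change of -0.19 ± 0.07 did not pass (SE; limma adjusted p = 0.087). Without menthol replicate 3 PLK4 passed, at -0.25 (limma adjusted p = 0.032), and over all alternatives tried its adjusted p ran between 0.026 and 0.23.

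PLK3, a polo-like kinase of stress responses, was the member with a positive value. It measured 85.3, 83.6 and 81.3 with menthol, against 79.9, 70.9 and 79.1 with vehicle. All menthol values lay above all vehicle values, by a margin smaller than the spread of the vehicle arrays. The change was 0.12 ± 0.07 and did not pass (SE; limma adjusted p = 0.22). The mean signal of PLK3 lay in the second lowest range of 4601 genes, in which the median change was 0.06. A further gene of the polo-like kinase family outside the 10, PLK5, was chosen after its values were seen. It rose by 0.25 ± 0.07 (SE, limma adjusted p = 0.038), with 118, 116 and 108 units under menthol, against 92.7, 103 and 93.1 under vehicle. PLK5 did not pass with equal array medians, with the replicate block, or without menthol replicate 1 or 2 or vehicle replicate 1 or 3 (limma adjusted p = 0.051 to 0.12).

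**Figure D2:**
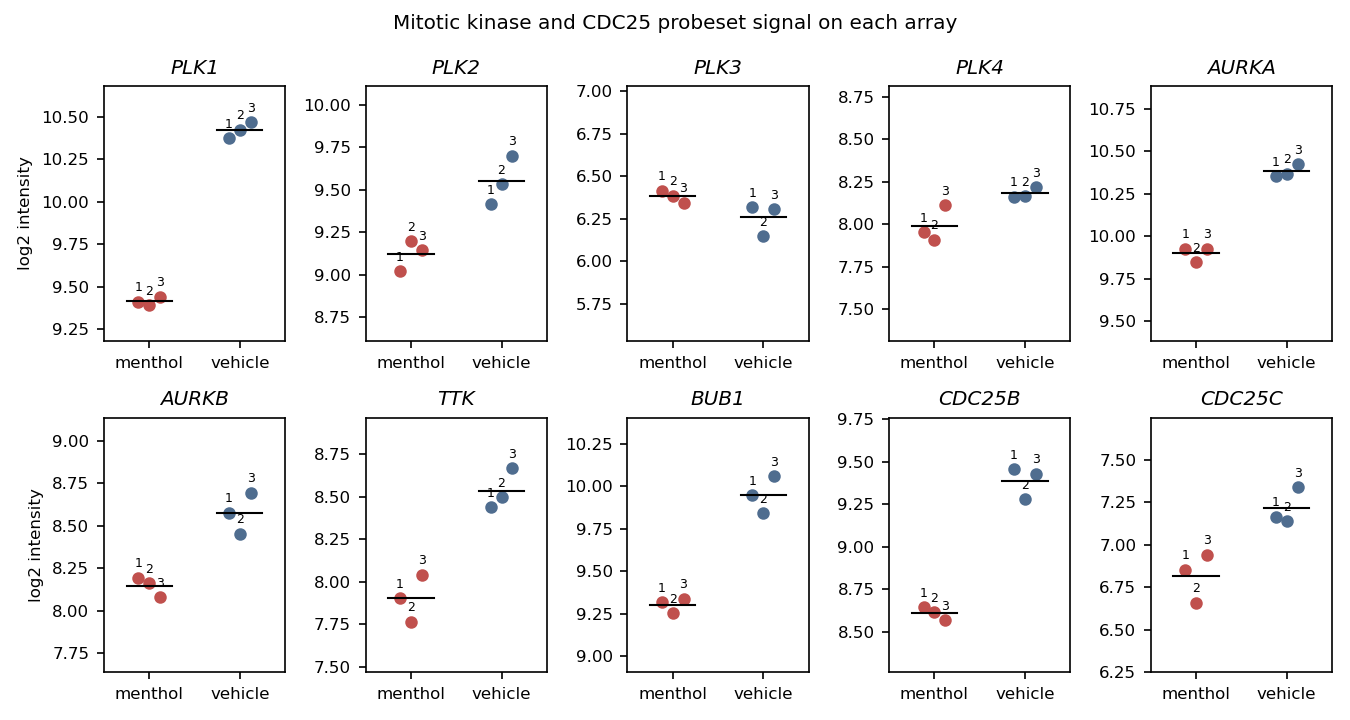
Signal of each of the 10 genes on each array, as log2 intensity, with menthol left of vehicle, each array's replicate number above its point and the mean as a line; every panel spans the same height of 1.5 log2 units. In 9 genes all menthol arrays lie below all vehicle arrays, and in PLK3 they lie above.

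The Aurora kinases fell by similar amounts. AURKA, which matures centrosomes and builds the spindle poles, measured 973, 920 and 973 with menthol, against 1309, 1320 and 1372 with vehicle. It fell by 0.48 ± 0.06 (SE; limma adjusted p = 0.0011), and the gap between the groups was several times the spread within them. AURKB, the catalytic subunit of the chromosomal passenger complex, measured 293, 286 and 271 with menthol, against 382, 351 and 415 with vehicle. It fell by 0.43 ± 0.08 (SE; limma adjusted p = 0.0056), with no overlap and a wider spread in the vehicle group.

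Both checkpoint kinases fell by more than 1.5-fold. TTK, also called MPS1, which starts checkpoint signalling at unattached kinetochores, measured 239, 217 and 263 with menthol, against 346, 362 and 407 with vehicle. It fell by 0.63 ± 0.09 (SE; limma adjusted p = 0.0023). BUB1, which binds KNL1 and marks centromeric histone H2A for shugoshin, measured 638, 609 and 647 with menthol, against 988, 916 and 1065 with vehicle. It fell by 0.65 ± 0.07 (SE; limma adjusted p = 0.00074). In both genes the highest menthol array stayed well below the lowest vehicle array.

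The CDC25 genes differed in the size of their fall. CDC25B, the phosphatase that first activates CDK1, measured 401, 392 and 379 with menthol, against 702, 622 and 689 with vehicle. It fell by 0.78 ± 0.07 (SE; limma adjusted p = 0.00027), the largest change among the 10 genes after that of PLK1. CDC25C measured 115, 101 and 123 with menthol, against 143, 141 and 162 with vehicle. It fell by 0.40 ± 0.09 (SE; limma adjusted p = 0.016), with the widest spread of the 10 genes under menthol, an SD of 0.14 on the log2 scale. Without vehicle replicate 3 CDC25C did not pass, at -0.33 (limma adjusted p = 0.054). CDC25A, the member of the family that acts mainly at the start of replication and is not among the 10, was at 0.07 ± 0.07 (SE; limma adjusted p = 0.48).

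**Figure D3:**
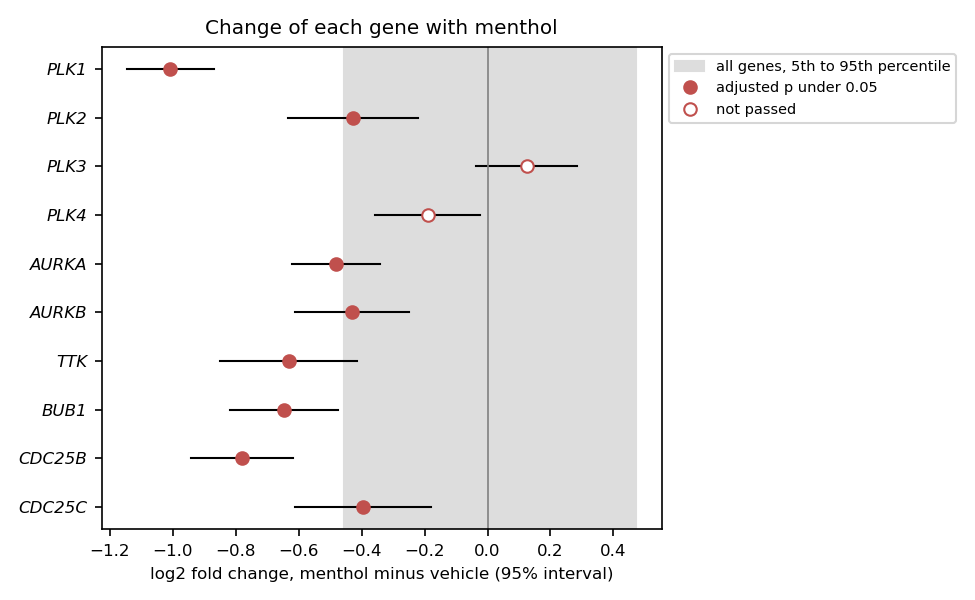
Log2 fold change of each gene, menthol minus vehicle, with its 95% interval from limma; filled points passed an adjusted p of 0.05, and the grey band spans the 5th to 95th percentile of all genes. PLK1 stands lowest at -1.01, followed by CDC25B at -0.78, BUB1 at -0.65 and TTK at -0.63, and PLK3 lies above 0.

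Every one of the 10 genes had groups that did not overlap, 9 lower and 1 higher with menthol, where 21.7% of all genes were lower and 23.5% higher without overlap. Among the vehicle arrays, replicate 3 gave the highest value in 8 of the 10 genes, while over all genes it was the highest in 36.3%. Menthol replicate 2 was the lowest menthol array in 6 of the 10 genes and in 28.2% of all genes. Without vehicle replicate 3 the median log2 fold change of the 10 genes was -0.42 and 7 fell. Without menthol replicate 2 the median was -0.46 and 8 fell.

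The difference between members was taken within each array, as the log2 value of 1 gene minus that of another, so that only its change with menthol is read and not its size. PLK1 minus PLK2 changed by -0.58 ± 0.08 (SE), the difference being 0.29 ± 0.10 with menthol and 0.87 ± 0.10 with vehicle (SD, n = 3 each). PLK1 minus PLK4 changed by -0.82 ± 0.05 and PLK1 minus PLK3 by -1.13 ± 0.07 (SE). PLK2 minus PLK3 changed by -0.55 ± 0.12 and CDC25B minus CDC25C by -0.38 ± 0.11 (SE). In these 5 pairs the menthol and vehicle arrays did not overlap, with a two-sided exact permutation p = 0.10 each and 0.14 adjusted over the 7 pairs tested, 0.10 being the smallest p that 3 against 3 arrays allow. AURKA minus AURKB changed by -0.05 ± 0.07 (exact permutation p = 0.60, adjusted p = 0.70) and TTK minus BUB1 by 0.01 ± 0.07 (exact permutation p = 0.90, adjusted p = 0.90), both with overlapping groups. The sign of these 2 small differences turned under quantile normalization.

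**Figure D4:**
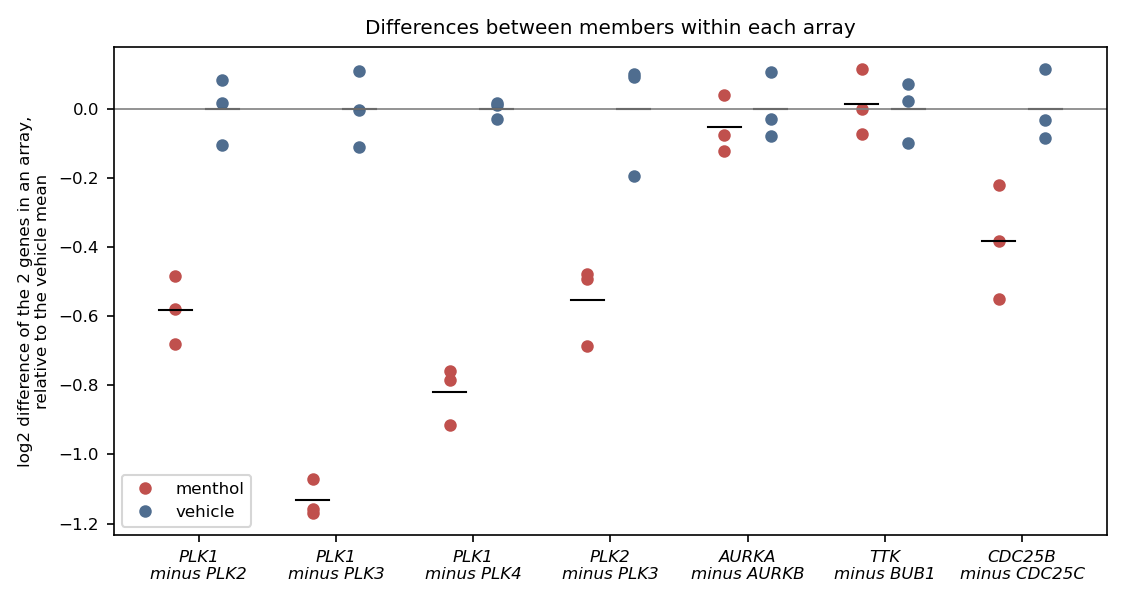
Difference in log2 intensity between 2 genes within each array, set to 0 at the vehicle mean of each pair, with menthol arrays left of vehicle arrays and means as lines. The menthol arrays lie below the vehicle arrays in the 3 pairs with PLK1, in PLK2 minus PLK3 and in CDC25B minus CDC25C, and overlap them in AURKA minus AURKB and TTK minus BUB1.

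Likeness was measured as the root mean square difference between 2 genes' log2 profiles over the 6 arrays after subtraction of each gene's own mean. TTK and BUB1 were each other's nearest among the 10 genes, at 0.07, as were AURKA and AURKB, at 0.08. The nearest member to CDC25C was AURKA at 0.08, that to CDC25B was BUB1 at 0.09 and that to PLK2 was AURKA at 0.10. Farther off were the nearest of PLK4, which was CDC25C at 0.12, and of PLK1, which was CDC25B at 0.14. PLK3 lay farthest, its nearest being PLK4 at 0.18. Over all genes the nearest to PLK1 were PLIN2, ITPR1, ABTB3, ACSS1 and CUTC, at 0.04 to 0.05, and none of these belongs to the lists of mitotic genes used here. The measure follows the size of the change as well as its shape, so it groups genes that fell about as far as PLK1.

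Direct partners of the kinases moved mostly the same way. Of 25 measured activators and partners 16 fell and 1 rose, with a median log2 fold change of -0.33. As shares, 64% fell and 4% rose, beside 14.5% and 14.6% of all genes and 26.9% and 17.2% of the 4601 brightest. Leaving out single arrays gave 11 to 16 falls. MAD2L1, the checkpoint protein that inhibits CDC20, fell by 0.94 ± 0.09, KIF20A, a midzone kinesin that docks PLK1, by 0.80 ± 0.06, and CKAP5, a microtubule polymerase, by 0.56 ± 0.07 (SE). For AURKA, its activator TPX2 fell by 0.44 ± 0.07, and BORA, with which AURKA activates PLK1, was at -0.26 ± 0.09 and did not pass (limma adjusted p = 0.064). All 3 measured companions of AURKB in the passenger complex fell, INCENP by 0.57 ± 0.08, CDCA8 by 0.54 ± 0.09 and BIRC5 by 0.23 ± 0.07. Among companions of BUB1, the pseudokinase BUB1B fell by 0.37 ± 0.07 and the kinetochore scaffold KNL1 by 0.33 ± 0.07, while BUB3 was at 0.07 ± 0.06 and did not pass (limma adjusted p = 0.46).

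None of the 3 named centriole genes around PLK4 fell past the threshold. STIL, which activates PLK4, measured 284, 287 and 302 with menthol, against 258, 231 and 252 with vehicle. It was the gene of the partner list that rose, by 0.24 ± 0.07 (SE; limma adjusted p = 0.034), and with any 1 array left out no gene of that list rose past the threshold. SASS6, the cartwheel protein of new centrioles, was at 0.03 ± 0.10, and CEP152, which recruits PLK4, was at -0.12 ± 0.09, neither past the threshold (limma adjusted p = 0.88 and 0.37).

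Both activators and an inhibitor of CDK1 fell. Of 22 measured genes of CDK1 activation and mitotic phosphatases 9 fell and 1 rose, with a median of -0.17. As shares, 40.9% fell and 4.55% rose, beside 14.5% and 14.6% of all genes and 26.9% and 17.2% of the 4601 brightest. CDK1 fell by 0.38 ± 0.08, its cyclins CCNB2, CCNB1 and CCNA2 fell by 0.85 ± 0.08, 0.54 ± 0.07 and 0.47 ± 0.07, and the CDK1-binding subunit CKS2 by 0.51 ± 0.10 (SE). WEE1, the inhibitory kinase that opposes CDC25, measured 142, 134 and 140 with menthol, against 242, 218 and 263 with vehicle. It fell by 0.79 ± 0.08 (SE; limma adjusted p = 0.00047), so a brake on CDK1 and its activator CDC25B were both lower. PKMYT1, the membrane-bound inhibitory kinase, was at -0.18 ± 0.07 and did not pass (limma adjusted p = 0.083). The gene that rose was MASTL, chosen after its values were seen, which encodes a kinase that restrains the phosphatase PP2A, at 0.24 ± 0.08 (limma adjusted p = 0.049), and it did not pass when any 1 array was left out.

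A further list of 18 genes, labelled other mitotic kinases, shares 5 genes with the lists above. Of these 18 genes 9 fell and 3 rose, with a median of -0.19. As shares, 50% fell and 16.7% rose, beside 14.5% and 14.6% of all genes and 26.9% and 17.2% of the 4601 brightest. NEK2, a centrosome kinase, fell by 0.57 ± 0.07 and PBK, a mitotic kinase, by 0.45 ± 0.08 (SE). NEK9, which works with NEK6 and NEK7 at spindle poles, measured 258, 292 and 288 with menthol, against 168, 159 and 156 with vehicle. It rose by 0.79 ± 0.07 (SE; limma adjusted p = 0.00029), as far as WEE1 fell. The other genes that rose were MASTL and PLK5, and leaving out single arrays gave 1 to 2 rises in this list.

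Genes of ubiquitin ligases and their targets were also lower on balance. Of 26 measured genes of mitotic ubiquitin ligases and their targets 12 fell and 2 rose, with a median of -0.19. As shares, 46.2% fell and 7.69% rose, beside 14.5% and 14.6% of all genes and 26.9% and 17.2% of the 4601 brightest. UBE2S, an E2 enzyme of the anaphase-promoting complex, fell by 0.90 ± 0.08, CCNF by 0.77 ± 0.06, the separase inhibitor PTTG1 by 0.69 ± 0.06 and the activator CDC20 by 0.58 ± 0.06 (SE). The genes that rose, named after their values were seen, were the scaffold CUL1 at 0.40 ± 0.08 and the subunit ANAPC13 at 0.32 ± 0.06.

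Regulators of G2/M genes, among them those that read the CHR and CCAAT elements, were measured as transcripts. Of 23 transcriptional regulators of G2/M genes 5 fell and 1 rose, with a median of -0.05. The share that fell, 21.7%, lay between the 14.5% of all genes and the 26.9% of the 4601 brightest genes that fell, so it is not a result about these regulators. MYBL2, which encodes B-MYB, fell by 0.52 ± 0.06 and FOXM1 by 0.38 ± 0.06 (SE; limma adjusted p = 0.00056 and 0.003). E2F5 fell by 0.77 ± 0.06 and NFYB, a subunit of NF-Y, by 0.48 ± 0.09. The other NF-Y subunits, NFYA and NFYC, were at -0.17 ± 0.06 and -0.07 ± 0.07, and the MuvB gene LIN54 was at 0.11 ± 0.07 (SE). None of them passed (limma adjusted p = 0.066, 0.49 and 0.31), nor did the MuvB genes LIN9, LIN37, LIN52 and RBBP4. All of these were named after their values were seen. E2F4, named after its values were seen, fell by 0.37 ± 0.06, and RBL1, the p107 pocket protein, likewise, rose by 0.33 ± 0.08. RBL1 did not pass without vehicle replicate 2.

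**Figure D5:**
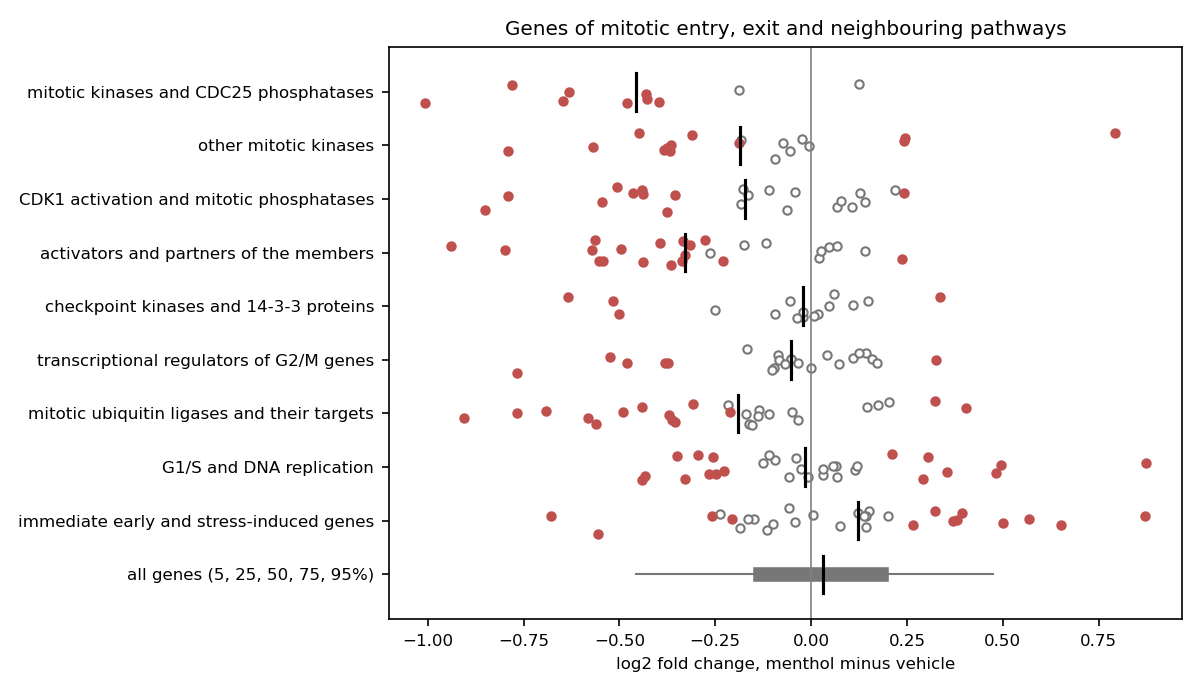
Log2 fold change, menthol minus vehicle, of the 10 genes and of 8 related gene lists, with filled points past an adjusted p of 0.05, open points not past it and medians as black lines; the bottom row gives percentiles of all genes. The medians of the 10 genes and of their activators and partners lie lowest, at -0.46 and -0.33, and those of G1/S genes and of checkpoint genes lie near 0.

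Among checkpoint kinases and the 14-3-3 proteins that bind phosphorylated CDC25, 3 of 16 fell and 1 rose, with a median of -0.02, near the 14.5% of all genes that fell and below the 14.6% that rose. The 14-3-3 gene YWHAE fell by 0.63 ± 0.07, the DNA damage adaptor MDC1 by 0.52 ± 0.08 and CHEK2 by 0.50 ± 0.15 (limma adjusted p = 0.043), and CLSPN, an adaptor of CHEK1, rose by 0.34 ± 0.06 (SE). CHEK1, which phosphorylates CDC25, was at 0.02 ± 0.06 (limma adjusted p = 0.86). Of 30 measured genes of G1/S and DNA replication 9 fell and 7 rose, with a median of -0.02. These shares were 30% and 23.3%, beside 14.5% and 14.6% of all genes and 26.9% and 17.2% of the 4601 brightest. The share that fell lay near that of the brightest genes, so it is not a result about this list. The cyclin CCNE2 rose by 0.87 ± 0.08, GINS3 by 0.49 ± 0.09 and the licensing gene CDC6 by 0.48 ± 0.07, while TYMS fell by 0.44 ± 0.06. In that list 5 genes fell in place of 9 without menthol replicate 2 or without vehicle replicate 1, 2 or 3.

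PLK2 and PLK3 are induced by growth factors and stress, and a further list held immediate early and stress-induced genes. Of 29 measured genes of that list 9 rose and 4 fell, with a median of 0.12, beside 14.6% of all genes that rose and 14.5% that fell. The median was 0.05 without menthol replicate 1. The matricellular genes CCN1 and CCN2 rose by 0.87 ± 0.07 and 0.65 ± 0.07 and GADD45B by 0.57 ± 0.06, while MYC fell by 0.68 ± 0.06 (SE). KLF4, SRF and NR4A1, named after their values were seen, fell by 0.56, 0.26 and 0.21. Only 2 genes of the list fell with any 1 array left out other than menthol replicate 1, when 5 fell.

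The arrays carried the signal of a carcinoma line. All 5 epithelial markers (KRT8, KRT18, KRT19, EPCAM, CDH1) lay among the 4601 brightest genes and rose, with a summed intensity of 10520 to 10856 with menthol and 6213 to 6570 with vehicle. The measured markers of leukocytes summed to 74.2 to 90.9 with menthol and 66.5 to 85.4 with vehicle, and 0 of 4 passed. Their single values ran from 5.66 to 40.7 units, and their defining gene PTPRC was the dimmest. Of 5 endothelial markers 2 rose, PECAM1 and CLDN5 (sums 192 to 201 with menthol and 152 to 166 with vehicle). Of 6 fibroblast markers COL1A2 and DCN rose and COL3A1 fell (sums 342 to 370 with menthol and 393 to 415 with vehicle). Leaving out single arrays gave 1 to 2 endothelial and 0 to 1 fibroblast rises, and 1 leukocyte marker, CD3E, rose without vehicle replicate 2. No marker was listed at 0, and the part of these changes in the results above was not tested. KLK2 and KLK3, markers of androgen-driven prostate cells, gave sums of 74.7 to 78.2 with menthol and 79.4 to 82.5 with vehicle, and neither passed.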

How the data were processed

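The authors deposited 1 table of intensity values for 32321 probesets on 6 arrays, made with RMA per the submitters' processing notes; its version is not given here. The deposited intensity values ran from 1.57 to 14835 and were linear, so log2 was taken. Gene names came from the platform annotation: 19158 probesets had 1 symbol, 1388 several and 11775 none here. Each gene kept its probeset with the highest mean, leaving 18404 genes. Menthol and vehicle, 3 arrays each, were compared by limma (version 3.58.1, under R 4.3.3) (group as the single term, two-sided, Benjamini-Hochberg over all genes, threshold 0.05), and pairs of genes with exact permutation tests in scipy 1.17.1. The number of arrays limits the precision. No 2 replicate arrays shared more than 2 equal gene values. The fit was tested on simulated data.

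The 10 genes and the gene lists were chosen with earlier results of these data known, so no list was tested as a set. The text names the 10 genes, fixed partners, and in each list the up to 4 largest changes past the threshold, or, where none passed, the up to 2 lowest p-values. It also names the markers and the 5 genes most like PLK1. Genes outside this rule are said to be named after their values were seen. Listed genes without a single-symbol probeset were not analysed here. Alternatives were 3 other normalizations, filters on dim genes, other uses of probesets, a pseudocount of 16, another prior (statmod 1.5.0), array weights, a replicate block, a threshold of 0.01 and the omission of each array.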

Additional observations from a re-analysis of the deposited data

How the results depend on the processing

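The falls of PLK1, PLK2, AURKA, AURKB, TTK, BUB1 and CDC25B kept their direction and stayed past 0.05 under all 17 alternatives that refit the data, and PLK3 kept its direction and did not pass under any that retained it. PLK1 ran from -1.03 to -0.95. Of the 10 genes 7 to 9 fell and 0 rose. CDC25C did not pass without vehicle replicate 3 or at a threshold of 0.01, and PLK4 passed with the filter at the median, the trended robust prior, array weights, a pseudocount of 16 and without menthol replicate 3. At a threshold of 0.01, 1459 of all genes fell and 1382 rose in place of 2670 and 2683. Leaving out single arrays, 1851 to 2472 fell and 1950 to 2402 rose.

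The difference AURKA minus AURKB turned to 0.00037 under quantile normalization and 0.0011 without vehicle replicate 2 (range -0.10 to 0.0011 with each array left out). TTK minus BUB1 turned to -0.010 under quantile and -0.00266 under cyclic loess normalization and ran from -0.037 to 0.057 with each array left out; the cause was not tested. In the related lists, the threshold of 0.01 left 10 partners, 7 ubiquitin ligase genes and 4 G1/S genes lower, and 4 G1/S genes higher. Counts of 4 or fewer genes moved under several alternatives, and quantile or cyclic loess normalization brought the median of the immediate early list to 0.07.

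The labels do not say whether the replicate numbers in the titles pair the arrays. Across genes the deviations of same-numbered arrays correlated at 0.006, -0.007 and 0.091, and those of different-numbered arrays at -0.072 to 0.072. Such small values, from groups of 3, cannot settle whether the arrays were paired. With the replicate number as a block 2385 genes fell and 2483 rose, and 8 of the 10 genes fell.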
